A study of Homo sapiens with 12 samples.

Results

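HES1 and 9 further genes of the Notch pathway were read across the arrays of HT-29 and SW480 cells with and without folic acid (FA). The genes are HES1, its fellow target genes NRARP and HEY1, the receptors NOTCH1, NOTCH2 and NOTCH3, and the ligands JAG1, JAG2, DLL1 and DLL4. HES1 was chosen by its measured difference between FA-treated and untreated HT-29 cells, the highest among clusters with a single gene symbol, and the others were added as known members of its pathway. Transcript clusters, the array's unit for a gene, were taken by their platform symbol, and 1 more cluster was added because the study names it HES1 although the platform table used here gives it no symbol. This gave 11 clusters for the 10 genes, of 67528 clusters in all and 23781 with a single symbol.

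Total RNA was profiled on 12 Human Transcriptome Arrays 2.0 in 4 groups of 3. The groups were HT-29 cells with 10000 ng/mL FA, HT-29 cells without FA (0 ng/mL), SW480 cells with 10000 ng/mL FA and SW480 cells without FA, each harvested after 72 h. Both are established human colon adenocarcinoma lines, grown in RPMI medium with serum and changed to FA-free RPMI before treatment, and no group carried an engineered allele. FA was dissolved in NaOH, and as the untreated arrays came from cells given nothing, FA and its solvent cannot be told apart. Replicates are labelled as biological, and cells were seeded in triplicate. Separate cultures are not stated, so p-values measure only the spread between these samples. Values are the deposited log2 signals, on which a difference of 1 is a 2-fold change. A signal depends on the probes, so levels of different genes were not compared.

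Notch receptors are cell surface proteins that are cut when a ligand of the Jagged or Delta-like families on a neighbouring cell binds them. The freed intracellular part enters the nucleus, joins the DNA-binding protein RBPJ and a Mastermind-like coactivator, and switches on target genes such as those of the HES and HEY repressors. In the intestinal crypt Notch signalling keeps progenitors dividing, and HES1 steers them towards the absorptive lineage by repressing ATOH1, the master regulator of goblet and endocrine cells.

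Of 11 epithelial markers, 10 in FA-treated and 9 in untreated HT-29 cells and 8 in each SW480 group averaged over the median of their arrays. KRT20, a keratin of differentiated colon epithelium and named after its values were seen, averaged 13.4 and 13.2 in FA-treated and untreated HT-29 cells. In FA-treated and untreated SW480 cells it averaged 3.71 and 3.78. With FA, KRT18, KRT19 and CDX2 averaged higher in SW480 than in HT-29 cells (KRT19 13.38 against 11.39). The other markers of this list averaged higher in HT-29 cells. Markers of fibroblasts, leukocytes and endothelium averaged at most 5.03 in any group. In a single group at most 2 of 6 fibroblast, 1 of 6 leukocyte and 1 of 5 endothelial markers averaged over the median of their arrays. Untreated HT-29 replicate 3 stood apart: its median signal was 4.75 against 4.3 to 4.4 on the other HT-29 arrays and its SD over clusters 1.86 against 2.17 to 2.20. Set against replicates 1 and 2 of its group, its clusters under 4 deviated by 0.40 in the median and those over 10 by -0.93, so bright genes read lower and dim genes higher there. For the 10 genes, differences that involve untreated HT-29 cells are therefore given with and without this array.

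HES1 was higher in every FA-treated HT-29 array than in any untreated one, and in SW480 cells it was high throughout. Its signals were 11.90, 13.28 and 12.42 in FA-treated HT-29 cells and 10.21, 10.74 and 9.55 in untreated HT-29 cells. The means of 12.53 ± 0.70 and 10.17 ± 0.60 (SD, n = 3 each) differ by 2.37, a 5.16-fold difference. Without untreated replicate 3 the difference was 2.06, or 4.17-fold. These HT-29 values chose HES1, so they are a description and no test of them is given. The second HES1 cluster gave 13.22, 14.68 and 13.48 in FA-treated HT-29 cells and 11.51, 11.86 and 9.33 in untreated HT-29 cells. Its difference was 2.89, or 7.43-fold. The study instead reports a smaller fold change for this cluster than for the main one. Untreated replicate 3 deviated by -2.355 from the mean of the other untreated arrays, and without it the difference was 2.11, or 4.31-fold. In both clusters FA-treated replicate 2 was the highest HT-29 array. These are bulk samples, in which a change in the share of cells that express a gene and a change in RNA per cell cannot be told apart.

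Ranked by the difference between FA-treated and untreated HT-29 cells, the 2 HES1 clusters stood first and second of 67528. Next to HES1 among clusters with a single symbol came HACD3, an enzyme of very long chain fatty acid synthesis, with 2.27, the membrane protein gene SLITRK6 with 1.99, and the interferon-induced IFI6 with 1.64. Without untreated replicate 3 these came to 0.88, 0.95 and -0.16, while HES1 stayed at rank 1. The share of all clusters that met the study's criteria in HT-29 cells (an unadjusted p not above 0.05 together with a change of 1.5-fold or more) was 1.36 percent, and no cluster passed an adjusted p of 0.05 in limma's moderated test, while 3671 had an unadjusted p under 0.05 and 4797 passed the adjusted p with array weights, which let limma give less weight to arrays that stand apart.

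**Figure D1:**
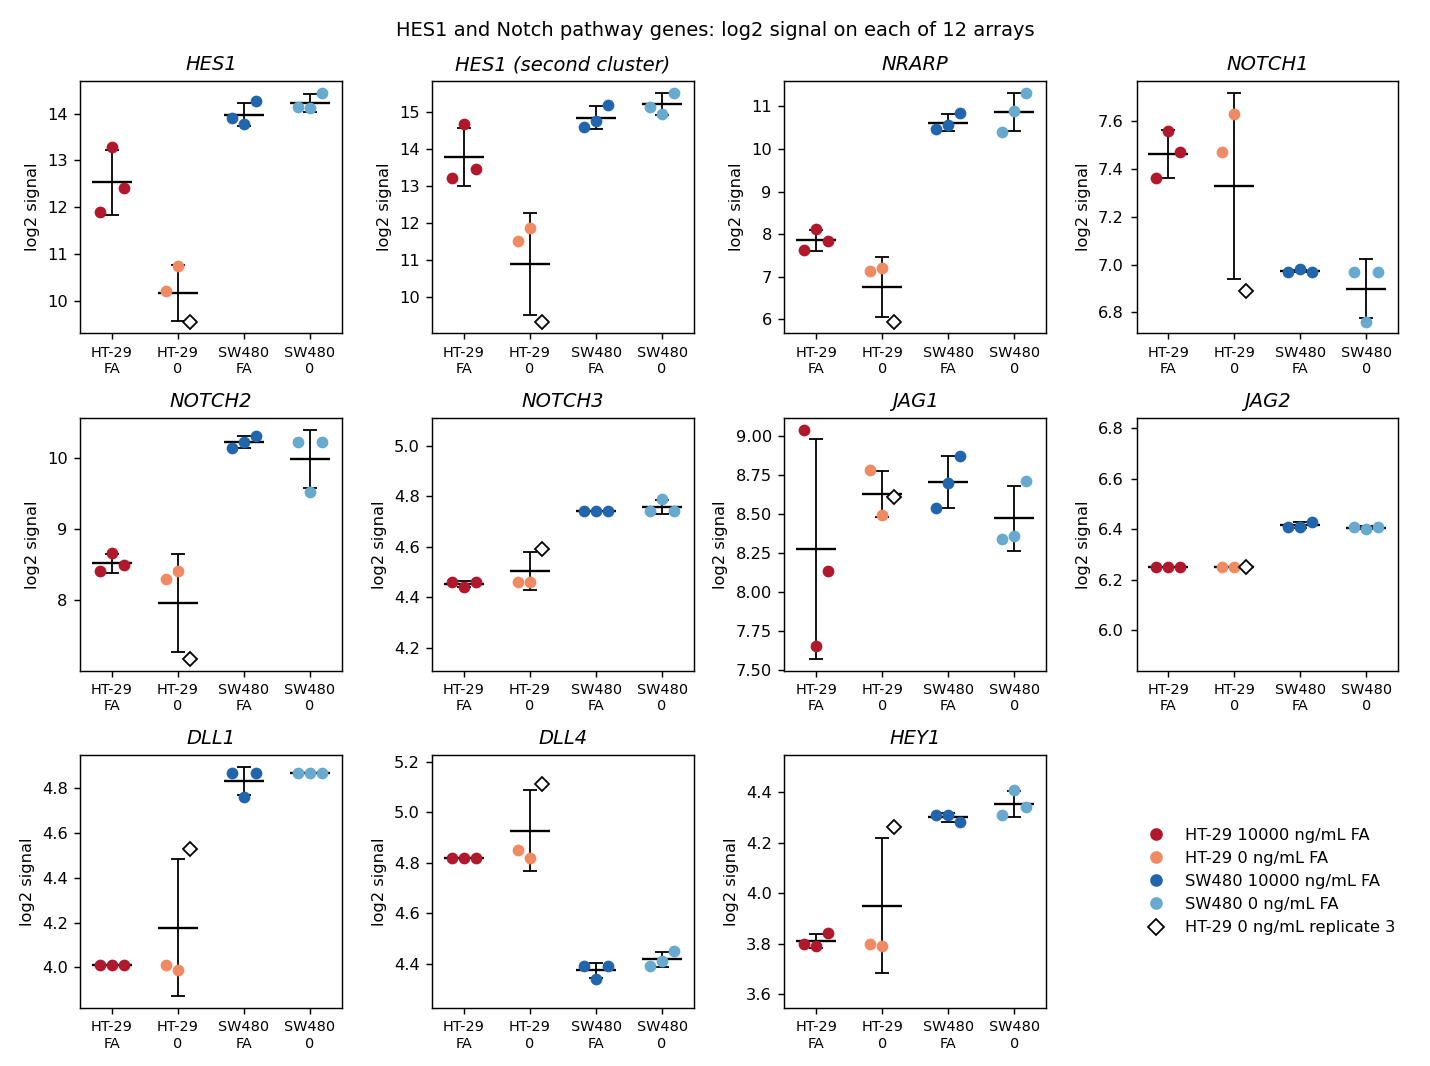
Log2 signal of each of the 11 clusters (vertical axis, a separate range for each gene) on the 12 arrays, with the 4 groups side by side, the horizontal bar at the mean and the whiskers at 1 SD (n = 3). HES1 lies at 11.90 or above in FA-treated HT-29 cells and at 10.74 or below in untreated HT-29 cells, and at 13.77 or above in every SW480 array; the open diamond is untreated HT-29 replicate 3.

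In SW480 cells HES1 read 13.91, 13.77 and 14.26 with FA and 14.13, 14.11 and 14.45 without FA. The groups overlapped, and the difference was -0.25 (95% interval -1.07 to 0.57, limma adjusted p = 1). The second cluster read 14.60, 14.77 and 15.20 with FA and 15.16, 14.96 and 15.54 without, a difference of -0.36 (95% interval -1.73 to 1.01, limma adjusted p = 1). The HT-29 difference exceeded that of SW480 by 2.62 for the main cluster (2.31 without untreated replicate 3) and by 3.26 for the second (2.47), again as a description, since the HT-29 contrast is part of it.

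The 250 bases before the HES1 start are shown because they hold the known DNA elements of Notch input and of HES1 feedback, beside those of NRARP, the other member whose HT-29 groups did not overlap. Sequences are from RefSeq on GRCh38.p14, read in the direction of the gene. HES1 lies on the plus strand (chr3:194135898-194136147) and NRARP on the minus strand (chr9:137302272-137302521). Capitals mark GTGGGAA, the core letters that RBPJ binds, and CACNAG, the N box to which HES1 itself binds, each searched on both strands. RBPJ sites with other letters were not searched for and are not marked.
HES1: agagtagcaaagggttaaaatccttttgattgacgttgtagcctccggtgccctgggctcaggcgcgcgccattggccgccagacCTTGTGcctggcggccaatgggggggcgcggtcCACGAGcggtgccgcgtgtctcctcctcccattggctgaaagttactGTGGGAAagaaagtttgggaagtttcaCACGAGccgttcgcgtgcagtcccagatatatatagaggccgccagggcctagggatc
NRARP: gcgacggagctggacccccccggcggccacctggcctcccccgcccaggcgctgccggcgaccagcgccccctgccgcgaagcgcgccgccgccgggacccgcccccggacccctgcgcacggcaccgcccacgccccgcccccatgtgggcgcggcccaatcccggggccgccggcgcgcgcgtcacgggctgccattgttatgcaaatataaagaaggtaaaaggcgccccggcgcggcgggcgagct
The HES1 window held 1 GTGGGAA, at -85 from the start, and 3 N boxes, at -165 on the opposite strand and at -132 and -58, with no overlap between matches. GTGGGAA occurred in 5.43 percent of 35116 promoter windows of this length, CACNAG in 32.0 percent, both in 2.04 percent and at least 3 N boxes in 0.911 percent. The NRARP window held neither, and of the 8 members with a promoter in the table (DLL1 and HEY1 were without one) only NOTCH3 had a further match, 1 N box at -211. A match of letters is a description and was not measured as binding here.

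NRARP encodes a small ankyrin repeat protein that Notch induces and that in turn limits the Notch transcription complex. Its signals were 7.62, 8.12 and 7.84 in FA-treated HT-29 cells and 7.14, 7.21 and 5.94 in untreated HT-29 cells, with no overlap. The difference was 1.10, or 2.14-fold, and 0.69, or 1.61-fold, without untreated replicate 3, which deviated by -1.235 from the mean of the other untreated arrays. Of the 9 genes other than HES1, NRARP was the 1 whose FA-treated HT-29 arrays all lay above the untreated ones, which held for 1.41 percent of all clusters and 1.88 percent of those with a single symbol. It is a description, since the same contrast chose HES1. NRARP ranked 62 of 23781 by its difference in HT-29 cells and 23 without untreated replicate 3. In SW480 cells it read 10.46, 10.57 and 10.84 with FA and 10.41, 10.89 and 11.32 without FA, a difference of -0.25 (95% interval -1.01 to 0.51, limma adjusted p = 1).

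Over the 6 HT-29 arrays, the order from highest to lowest signal was the same for NRARP and the second HES1 cluster as for HES1, and NOTCH2 shared it apart from a tie. With no ties allowed, 69 of the other 23780 single-symbol clusters held this order, or 0.29 percent, NRARP among them. With ties allowed, 2076 of 23781 did, or 8.73 percent, NOTCH2 among them. The order is taken from the HT-29 arrays that chose HES1, so these shares are a description. Across all 12 arrays the genes most like HES1, by the root mean square difference of values centred on each gene's mean, were SAMHD1 (0.569), PKP2 (0.569), PRIM1 (0.611), NRARP (0.621) and TMT1B (0.630), while the second HES1 cluster had 0.406. SAMHD1 breaks down deoxynucleotides, PKP2 is a desmosome protein and PRIM1 is the catalytic subunit of primase. SAMHD1, as an example, averaged 8.42 and 7.50 in FA-treated and untreated HT-29 cells, and 10.66 and 11.02 in FA-treated and untreated SW480 cells. Without untreated replicate 3, SAMHD1, PKP2 and PRIM1 stayed the nearest and NRARP was no longer among the 5 nearest. The 12 arrays come from 2 cell lines, so a gene with a like difference between the lines scores as near.

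Of the receptors, NOTCH2 had a higher mean in FA-treated HT-29 cells and NOTCH1 and NOTCH3 differed little. NOTCH2 read 8.41, 8.67 and 8.49 in FA-treated HT-29 cells and 8.30, 8.41 and 7.17 in untreated HT-29 cells. The groups touched at 8.41, and the difference was 0.56, or 0.17 without untreated replicate 3. In SW480 cells NOTCH2 read 10.14, 10.23 and 10.31 with FA and 10.23, 9.52 and 10.23 without FA, where untreated replicate 2 was the low array. The SW480 difference of 0.23 (95% interval -0.45 to 0.92, limma adjusted p = 1) was -0.003 without that array.

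NOTCH1 read 7.36, 7.56 and 7.47 in FA-treated HT-29 cells and 7.47, 7.63 and 6.89 in untreated HT-29 cells. Its groups overlapped, and the difference of 0.13 turned to -0.09 without untreated replicate 3. In SW480 cells it read 6.97, 6.98 and 6.97 with FA and 6.97, 6.76 and 6.97 without FA, a difference of 0.07 (95% interval -0.29 to 0.44, limma adjusted p = 1). NOTCH3 was dim, near the median signal of the arrays, with 4.46, 4.44 and 4.46 in FA-treated HT-29 cells and 4.46, 4.46 and 4.59 in untreated HT-29 cells. Its HT-29 difference was -0.05, or -0.01 without untreated replicate 3. In SW480 cells it read 4.74 on all 3 FA-treated arrays and 4.74, 4.79 and 4.74 without FA.

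Such repeated values recur across the arrays: 12.3 percent of all clusters had the same value on the 3 FA-treated HT-29 arrays, among them JAG2, DLL1 and DLL4, and 10.4 percent did on the 3 FA-treated SW480 arrays, among them NOTCH3. The shares were 3.13 percent on the untreated HT-29 arrays and 6.72 percent on the untreated SW480 arrays. They are not confined to dim clusters, since CTBP2 read 8.66 on all 3 FA-treated HT-29 arrays. Where a group has a spread of 0, its SD does not describe the variation between cultures.

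JAG1, a ligand of the Jagged family, had the widest spread of the 4 ligands in HT-29 cells. It read 9.04, 7.65 and 8.13 in FA-treated HT-29 cells and 8.78, 8.49 and 8.61 in untreated HT-29 cells, so the untreated arrays lay inside the range of the treated ones. The difference was -0.35, and -0.36 without untreated replicate 3. In SW480 cells JAG1 read 8.54, 8.70 and 8.87 with FA and 8.34, 8.36 and 8.71 without FA, a difference of 0.23 (95% interval -0.42 to 0.88, limma adjusted p = 1).

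The other ligands were dim or flat. JAG2 read 6.25 on all 6 HT-29 arrays, 6.41, 6.41 and 6.43 in FA-treated SW480 cells and 6.41, 6.40 and 6.41 in untreated SW480 cells. DLL1 read 4.01 on all 3 FA-treated HT-29 arrays and 4.01, 3.99 and 4.53 on the untreated ones, and its difference of -0.17 was 0.01 without the 4.53 of replicate 3. In SW480 cells DLL1 read 4.87, 4.76 and 4.87 with FA and 4.87 on all 3 arrays without FA. DLL4, best known from endothelium, read 4.82 on all 3 FA-treated HT-29 arrays and 4.85, 4.82 and 5.11 on the untreated ones. Without replicate 3 its HT-29 difference of -0.11 was -0.015. Its SW480 values were 4.39, 4.34 and 4.39 with FA and 4.39, 4.41 and 4.45 without FA.

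HEY1, a repressor of the family next to HES, averaged under the median of the arrays in both lines. It read 3.80, 3.79 and 3.84 in FA-treated HT-29 cells and 3.80, 3.79 and 4.26 in untreated HT-29 cells. The 4.26 was again replicate 3, and the difference of -0.14 was 0.015 without it. In SW480 cells HEY1 read 4.31, 4.31 and 4.28 with FA and 4.31, 4.41 and 4.34 without FA.

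Whether FA moved these genes could be tested in SW480 cells, whose arrays had no part in choosing HES1. None of the 10 genes passed an adjusted p of 0.05, none met the study's criteria and none had an unadjusted p under 0.05, the lowest being 0.44 for JAG1. Over all clusters 0.00592 percent (4 of 67528) passed the adjusted p, 1.04 percent met the study's criteria and 4.06 percent (2739) had an unadjusted p under 0.05. The members' differences ran between -0.25 and 0.23 with a median of -0.03, beside -0.02 over all clusters and -0.007 over single-symbol clusters. The 95% intervals were narrowest for JAG2 (-0.09 to 0.11) and NOTCH3 (-0.13 to 0.10). Both genes have repeated values (JAG2 6.25 on all 6 HT-29 arrays, NOTCH3 4.74 on 5 of 6 SW480 arrays). Their intervals may therefore not describe the variation between cultures. For HES1, NRARP, NOTCH2 and JAG1 the intervals reached past 0.5 in at least 1 direction, so differences of that size were not detectable for these genes. The intervals are not adjusted for the number of clusters, so a call at the adjusted p needed a larger difference still. In HT-29 cells 4 of the 10 genes had a higher mean with FA, 5 a lower and 1 the same, while 40.8 percent of single-symbol clusters had a higher mean. The members' median was -0.03, the same as the -0.03 over single-symbol clusters. Over all clusters it was -0.08, or -0.005 without untreated HT-29 replicate 3. Of the 9 genes other than HES1, 3 were higher and 5 lower, or 4 and 4 without that replicate.

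**Figure D2:**
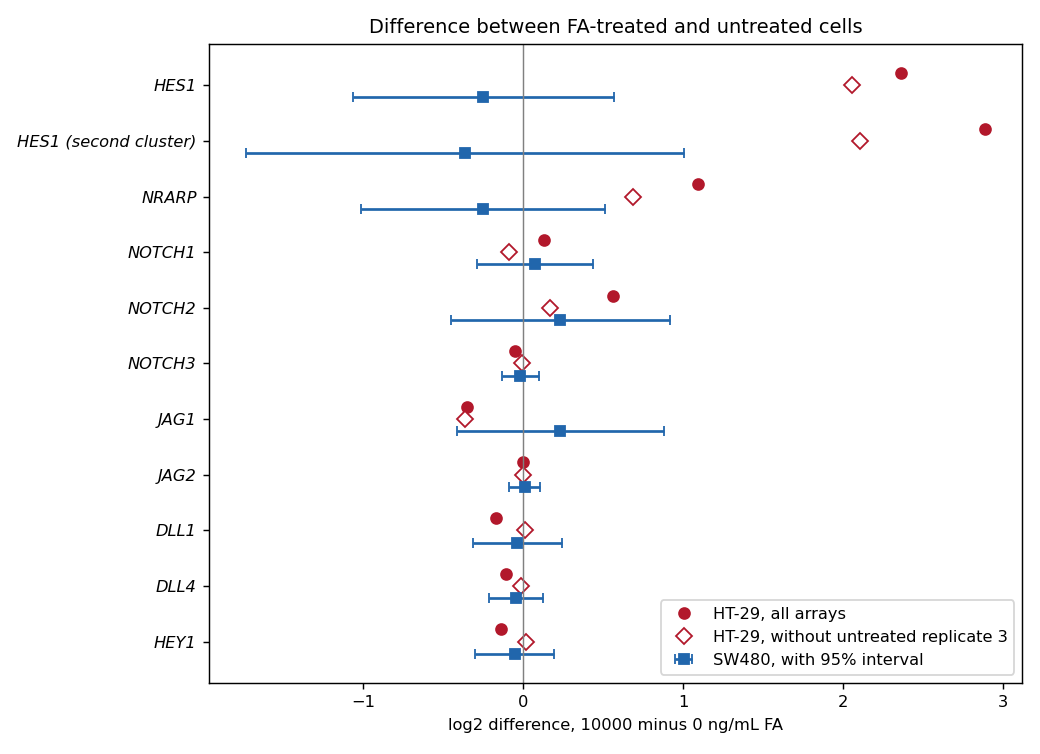
Log2 difference between FA-treated and untreated cells (horizontal axis) for each cluster, in HT-29 cells with all arrays (filled circles) and without untreated replicate 3 (open diamonds), and in SW480 cells (squares with the 95% interval of the limma fit). The 2 HES1 clusters lie at 2.37 and 2.89 and NRARP at 1.10 in HT-29 cells, while every SW480 interval includes 0.

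The lines themselves differed in most of these genes, and HES1 and NRARP were far lower in HT-29 than in SW480 cells. With FA, HES1 averaged 12.53 ± 0.70 in HT-29 cells and 13.98 ± 0.25 in SW480 cells (SD, n = 3 each), a difference of -1.45 or 2.73-fold, with no overlap. Without FA it averaged 10.17 ± 0.60 in HT-29 cells and 14.23 ± 0.19 in SW480 cells, a difference of -4.06 or 16.7-fold, and -3.76 without untreated HT-29 replicate 3. The second HES1 cluster differed by -1.06 with FA, where the highest HT-29 array (14.68) passed the lowest SW480 array (14.60), and by -4.32 without FA, or -3.54 without untreated HT-29 replicate 3. HES1 is given here without a test, because its HT-29 arrays chose it.

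Of the other 9 genes, 8 were called with FA (limma, adjusted p under 0.05), 2 higher and 6 lower in HT-29 cells, beside 41.1 percent of all clusters (15.1 percent higher, 26 percent lower) and 53 percent of those with a single symbol. Without FA 7 were called, 1 higher and 6 lower, beside 42.7 percent of all clusters (18 percent higher, 24.7 percent lower) and 53.7 percent of those with a single symbol. Under quantile normalization the split was 2 higher and 4 lower with FA, and 2 higher and 5 lower without FA. Over all clusters with FA, 50.2 percent of the calls were then higher, against 36.7 percent as deposited. Without FA these shares were 49.1 and 42.2 percent. The members' median difference was -0.43 with FA and -0.25 without FA, beside -0.14 and -0.11 over single-symbol clusters. Over all clusters the medians were -0.07 and -0.01.

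NRARP was 6.79-fold lower in HT-29 cells with FA (7.86 ± 0.25 in HT-29 and 10.62 ± 0.20 in SW480 cells, difference -2.76, limma adjusted p = 0.000116) and 17.3-fold lower without FA (6.76 ± 0.71 and 10.87 ± 0.46, difference -4.11, adjusted p = 6.78e-06). Without untreated HT-29 replicate 3 the difference without FA was -3.70. NOTCH2 was 3.26-fold lower with FA (8.52 ± 0.13 in HT-29 and 10.23 ± 0.09 in SW480 cells, limma adjusted p = 0.00146) and 4.09-fold lower without FA (7.96 ± 0.69 and 9.99 ± 0.41, difference -2.03, adjusted p = 0.000465). Without untreated HT-29 replicate 3 the difference without FA was -1.64. DLL1 differed by -0.82 with FA (4.01 in HT-29 and 4.83 in SW480 cells, limma adjusted p = 0.000464) and by -0.69 without FA (adjusted p = 0.00138), or -0.87 without replicate 3. DLL1 averaged under the median of the arrays in HT-29 cells, so its difference may understate the change. NRARP and NOTCH2 averaged over the median of the arrays in both lines.

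The remaining calls were small. NOTCH3 differed by -0.29 with FA and -0.25 without FA, and HEY1 by -0.49 and -0.40, both lower in HT-29 cells (limma adjusted p at most 0.0151). Without untreated HT-29 replicate 3 the differences without FA were -0.30 and -0.56. The NOTCH3 call with FA was lost under quantile normalization (0.119) and median centring (0.0713), and the HEY1 call without FA was lost without untreated HT-29 replicate 1 (adjusted p = 0.0537) or replicate 2 (0.0511). JAG2 differed by -0.17 with FA and -0.16 without FA, but the sign turned under quantile normalization, to 0.14 and 0.13, while leaving out untreated HT-29 replicate 3 left it at -0.157 without FA. DLL4 was higher in HT-29 cells in each comparison, by 0.45 with FA and 0.51 without FA (limma adjusted p = 0.000916 and 0.000383), or 0.42 without FA and without replicate 3, while its SW480 means lay under the median of the arrays.

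The calls of NOTCH1 and JAG1 changed with single arrays. NOTCH1 was higher in HT-29 cells with FA by 0.49 (limma adjusted p = 0.0354), a call that was lost when any 1 of the 6 FA-treated arrays was left out (0.0545 to 0.106). Without FA its difference was 0.43 (0.057), or 0.65 without untreated HT-29 replicate 3 (0.000233). JAG1 did not pass, at -0.43 with FA (0.272) and 0.16 without FA (0.696), or 0.165 without untreated HT-29 replicate 3. Leaving out FA-treated HT-29 replicate 1, the highest JAG1 array, gave -0.81 with FA (limma adjusted p = 0.00731).

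**Figure D3:**
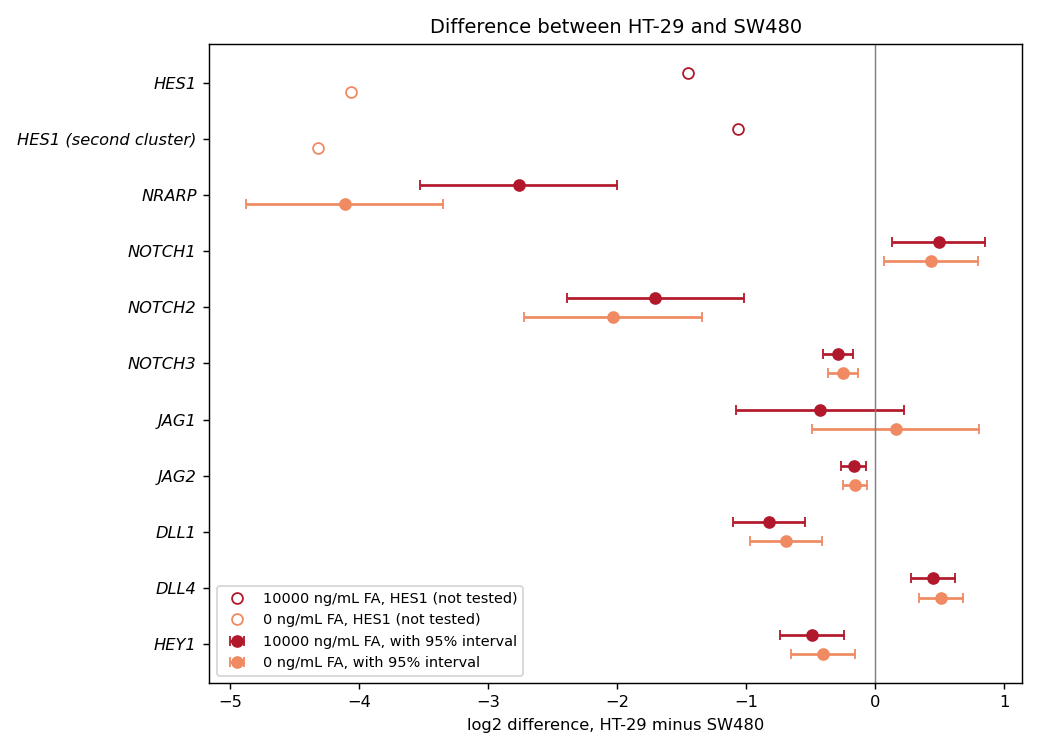
Log2 difference between HT-29 and SW480 cells (horizontal axis, HT-29 minus SW480) at 10000 ng/mL FA and at 0 ng/mL FA, with the 95% interval of the limma fit for the 9 tested genes and open circles for HES1. NRARP lies at -2.76 with FA and -4.11 without, NOTCH2 at -1.70 and -2.03, and DLL4 and NOTCH1 lie to the right of 0.

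The rest of the pathway was read in 9 lists of 102 genes by role, of which 92 had a cluster of their own, 7 had no cluster named here and 3 shared a cluster with another gene. In SW480 cells FA moved none of the 92 past an adjusted p of 0.05, with a median difference of 0.00. The lowest unadjusted p was 0.0263, for HEY2, which differed by 0.24 (adjusted p = 1). RBPJ, the DNA-binding partner of every Notch receptor, differed by 0.12 (limma adjusted p = 1) in SW480 cells and by 0.04 in HT-29 cells, or 0.003 without untreated HT-29 replicate 3. In HT-29 cells 51 of the 92 had a higher mean with FA and 39 a lower, or 42 and 32 without that array. The shares with a higher mean, 55.4 and 45.7 percent, stand beside 40.8 and 42.2 percent of single-symbol clusters. The lists that leaned most to a higher mean were the proteases (8 of 8, or 7 of 8 without that array), the corepressors (11 of 12, or 6 of 12) and the nuclear activator complex (8 of 9, or 7 of 9), with medians of 0.25, 0.17 and 0.23, or 0.14, 0.002 and 0.03 without it.

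Between the lines 59 of the 92 were called with FA, 18 higher and 41 lower in HT-29 cells, and 58 without FA, 16 higher and 42 lower. Over single-symbol clusters, 16.4 percent were called higher and 36.6 percent lower with FA, and 17.4 percent and 36.3 percent without FA. Under quantile normalization the splits were 26 higher and 33 lower with FA, and 24 and 37 without FA. The medians were -0.22 with FA and -0.21 without FA, beside -0.14 and -0.11 over single-symbol clusters. Of the 59 genes called with FA, 15 averaged at or under the median of the arrays in at least 1 line. DLK1, NEURL1B, HES2, HES3, ATOH1 and BCL2 did so in both lines, where a call compares dim signals with each other. For the others of the 15 a difference may understate the change. Values without FA below include untreated HT-29 replicate 3 unless stated.

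The list of 11 other HES and HEY genes also holds BHLHE40, BHLHE41 and HELT of the wider family. Of the 11, 2 were higher and 8 lower in HT-29 cells with FA, and 1 higher and 8 lower without FA. BHLHE41 was higher in both comparisons. The other gene higher with FA was HES3 (3.75 against 3.48), under the median of the arrays in both lines. HEY2 read 4.53 on all 3 FA-treated HT-29 arrays and 4.71, 4.53 and 4.63 on the untreated ones, against 8.12, 8.15 and 8.14 in FA-treated and 7.76, 7.82 and 8.12 in untreated SW480 cells. It differed by -3.61 with FA (limma adjusted p = 1.77e-09) and by -3.28 without (3.28e-09), and as its HT-29 signals lay close to the median of the arrays, the differences may understate the change. HEYL, under that median in HT-29 cells, differed by -1.29 with FA and by -1.19 without. BHLHE41, a circadian repressor of the wider family, went the other way, 21.3-fold higher in HT-29 cells with FA (limma adjusted p = 2.51e-07) and 15.5-fold higher without (5.53e-07). Between FA-treated and untreated HT-29 cells, HEY2 differed by -0.09 and HEYL by -0.13, or -0.09 and 0.005 without untreated replicate 3.

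The genes listed here as a secretory program under HES1 repression, directly or through ATOH1, differed little between FA-treated and untreated HT-29 cells. ATOH1 averaged 4.10 ± 0.10 with FA and 4.03 ± 0.02 without FA in HT-29 cells, and 3.90 ± 0.02 and 4.01 ± 0.09 in SW480 cells, all under the median of the arrays. Of the 10 measured genes of this list 3 had a higher and 7 a lower mean in FA-treated HT-29 cells. The median was -0.05, or -0.01 without untreated replicate 3. The share with a higher mean, 30 percent, stands beside 40.8 percent of single-symbol clusters. GFI1, INSM1, TFF3 and CHGA also averaged at or under the median of the arrays in HT-29 cells, where a fall may not show. Between the lines 3 were higher and 2 lower in HT-29 cells with FA, and 3 higher and 1 lower without FA. Under quantile normalization 2 were higher and 1 lower in each comparison. There KLF4, called lower with FA as deposited, changed sign. SPDEF, a factor of goblet cell maturation, was 4.89-fold higher in HT-29 cells with FA (7.50 ± 0.08 against 5.21 ± 0.03, limma adjusted p = 2.34e-09). MUC2, the goblet cell mucin, was higher by 0.40, and GFI1, a repressor in secretory progenitors, differed by -0.85.

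The 12 measured Notch targets outside the HES and HEY families split between the lines, with 1 higher and 6 lower in HT-29 cells with FA and 2 higher and 6 lower without FA. CCND1, the G1 cyclin, averaged 10.32 ± 0.26 in FA-treated HT-29 cells and 16.10 ± 0.07 in FA-treated SW480 cells, 54.8-fold lower (limma adjusted p = 3.54e-08). NFKB2, a subunit of the non-canonical NF-kB factor, was lower by 1.71 (1.08e-08) and CDKN1A, the inhibitor p21 of cyclin-dependent kinases, by 1.68 (5.49e-07). ID1, an inhibitor of basic helix-loop-helix factors, was higher by 4.04 with FA (limma adjusted p = 7.67e-07), with SW480 signals under the median of the arrays. Between FA-treated and untreated HT-29 cells the targets that differed most were SOX9, a crypt transcription factor, and CD44, a hyaluronan receptor. Both were picked out for this difference after their values were seen, although CD44 also met the naming rule given below. SOX9 read 11.42, 12.11 and 11.51 with FA and 10.82, 11.46 and 9.39 without FA, a difference of 1.12, or 0.54 without replicate 3. CD44 read 11.51, 12.34 and 11.55 with FA and 11.07, 11.49 and 9.69 without FA, a difference of 1.05, or 0.52 without replicate 3.

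Upstream of the nucleus the differences between the lines ran in both directions. Among receptors and ligands outside the 10 genes, 5 of 8 were lower and none higher in HT-29 cells with and without FA. MFAP2, a microfibril protein that binds Jagged ligands, was lower by 1.55 with FA, and the inhibitory ligand DLL3 by 1.24. Of 6 glycosyltransferases that modify the receptors, 5 were lower with FA and 6 without FA, but 3 in each under quantile normalization and under median centring. EOGT, XXYLT1 and GXYLT1 were lower by 1.48, 0.83 and 1.09 with FA. Of the 8 protease genes 4 were higher and 3 lower with FA, and 3 and 3 without FA, but 4 and 1, and 4 and 2, under quantile normalization. FURIN, which cuts the receptor during its maturation, was 5.76-fold lower in HT-29 cells with FA (limma adjusted p = 2.42e-06), while APH1B, a gamma-secretase subunit, was higher by 0.88. ADAM17, a sheddase, was lower by 0.76 with FA, and PSEN2, a catalytic gamma-secretase subunit, by 0.42.

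The 16 ubiquitin ligases and endocytic regulators had 3 genes higher and 6 lower in HT-29 cells with and without FA, but 6 and 6 with FA and 5 and 6 without FA under quantile normalization. DTX4, of the Deltex ligase family, was 6.20-fold higher with FA (limma adjusted p = 4.23e-05), EPN1, the endocytic adaptor epsin, was higher by 1.02, and DTX3 was lower by 1.80. MIB1, the ligase that lets ligand-bearing cells pull on the receptor, was lower by 1.41 with FA. In the nuclear activator complex 1 of 9 genes was higher and 3 lower with and without FA, but 3 and 2 with FA and 3 and 3 without FA under quantile normalization. KAT2B, an acetyltransferase, was lower by 1.62 with FA, SNW1 by 1.48, and the coactivator MAML3 was higher by 1.497. Of 12 corepressors 4 were higher and 3 lower with FA and 3 and 4 without FA, but the balance turned with the scaling, to 6 and 2 with FA and 6 and 3 without FA under quantile normalization and to 3 and 2 with FA and 1 and 3 without FA under median centring. TLE3, a Groucho-type corepressor that HES proteins recruit, was 5.18-fold lower in HT-29 cells with FA (limma adjusted p = 2.65e-06), and TLE2 and TLE4 differed by -0.64 and -0.43.

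**Figure D4:**
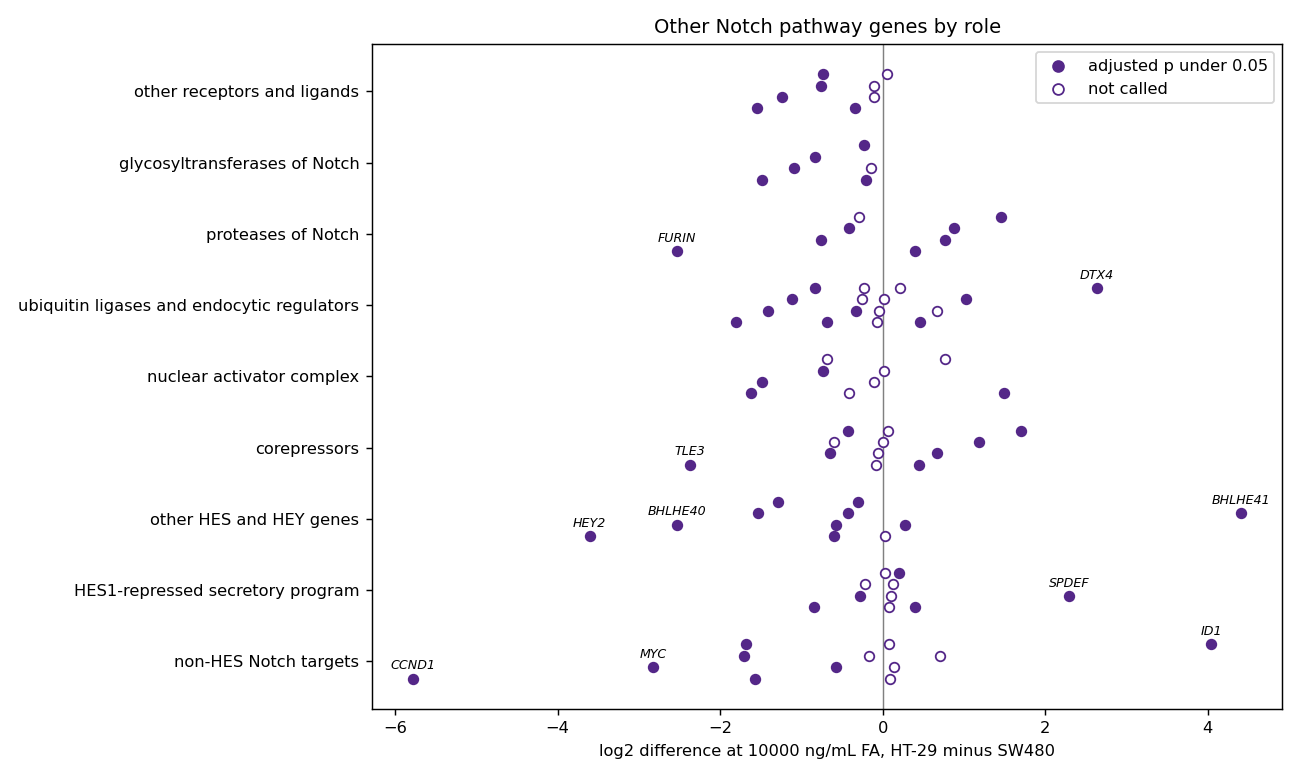
Log2 difference between FA-treated HT-29 and FA-treated SW480 cells (horizontal axis, HT-29 minus SW480) for 92 further pathway genes in 9 roles, filled where the limma adjusted p was under 0.05. CCND1 lies farthest to the left at -5.78 and BHLHE41 farthest to the right at 4.41, and 18 genes are called to the right and 41 to the left of 0.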

How the data were processed

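Deposited log2 signals of 67528 transcript clusters on 12 arrays were used as the authors made them, with Transcriptome Analysis Console 4.0 and RMA per the labels (signal space transformation RMA per the study's methods). RMA commonly includes quantile normalization, but the deposited arrays do not share 1 distribution, untreated HT-29 replicate 3 least. No values were missing. Platform annotation named 23781 clusters by a single symbol, 1543 by several and 42204 by none, and where a gene of the wider lists had several clusters the one with the highest mean was used. limma 3.58.1 in R 4.3.3 was fitted to all clusters with 4 group means (8 residual degrees of freedom) and Benjamini-Hochberg adjustment over all clusters. A call is an adjusted p under 0.05. The named genes are every cluster of the 10 genes, up to 3 of each wider list with the lowest p in each tested comparison, the 5 genes most like HES1 and the 3 ranked next to it; SOX9 and KRT20 were added after their values were seen. The 10 genes and all lists were chosen with earlier results of these data known. Array depth does not apply, and the number of arrays limits the precision. Scripts were tested on simulated data.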

Additional observations from a re-analysis of the deposited data

How the results depend on the processing

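The limits are the 3 arrays a group, untreated HT-29 replicate 3, values that repeat across arrays, and a solvent control not analysed here. A difference smaller than the distance from its interval's centre to its bounds was not detectable. Larger ones can also miss the adjusted p. Array weights, quantile normalization, median centring, a variance trend, separate fits, a filter on low clusters (33.3 percent dropped), averaging a gene's clusters and the loss of each array were tried. For the difference between the lines with FA, 8 of the 9 genes were called on the values as deposited. With each array centred on its median 5 were called, and under quantile normalization 6. In SW480 cells the sign of a difference with FA turned, with no call, for NOTCH2 without untreated replicate 2 (-0.003, the leave-one-out range being -0.003 to 0.352), for NOTCH3 (0.027 and 0.037), DLL1 (0.005 and 0.017) and DLL4 (0.007 and 0.01) under quantile normalization and median centring, and for JAG2 (-0.008) and HEY1 (0.001) under quantile normalization. JAG2 turned between the lines under quantile normalization (0.132 without and 0.142 with FA). The cause of these was not tested. Calls between the lines also ended for JAG2 (separate fits, adjusted p = 0.0963) and HEY1 (separate fits, 0.102) without FA and for NOTCH3 (median centring, 0.0713) with FA by limma. Leaving out each array gave 7 to 8 calls of 9 with FA and 6 to 8 without FA, 0 in SW480 cells, 54 to 74 (with FA) and 52 to 72 (without FA) of the 92 wider genes, and 1.99 to 2.68 for HES1 in HT-29 cells and 2.24 to 2.93 for its excess over SW480 cells. Over all clusters array weights, which downweight the array that stands apart, gave 4797 calls in HT-29 cells against 0, and 46536 and 42361 between the lines without and with FA against 28865 and 27725. Separate fits gave 20093 and 39281.

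Whether replicate numbers pair the samples cannot be settled with 3 arrays a group. Deviations of same-numbered arrays correlated at -0.065, 0.157 and -0.023 in HT-29 and at -0.076, 0.013 and 0.399 in SW480 cells. Those of differently numbered arrays ran between -0.163 and 0.129 in HT-29 and between -0.341 and 0.317 in SW480 cells. With the replicate number as a block 7 genes were called without FA and 7 with FA, the NOTCH1 call being lost (limma adjusted p = 0.0537), 0 of 10 in SW480 cells, and 53, 56 and 0 of the 92 wider genes without FA, with FA and in SW480 cells; no other call of the 10 genes changed, and HES1 kept 2.367 in HT-29 cells and an excess of 2.617.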
